A study of Homo sapiens with 9 samples.

Results

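The genes ADGRG1, CALB2, STRA6 and MPP4, 4 of the 58721 in each count table, were followed across all libraries of the series. They were chosen by their lower counts in melatonin than in control in these same libraries, so their values in that comparison are a description and carry no test. RNA was sequenced in 9 libraries of H1299, a human cell line derived from a non-small cell carcinoma of the lung. The groups, each of 3 libraries, were cells given 0.1 mM melatonin, cells given siCLOCK (small interfering RNA against the circadian factor CLOCK), and control cells in serum free medium. The labels name no non-targeting siRNA and no duration of treatment. They do not say whether the melatonin and siCLOCK cells were also without serum, or whether libraries of a group came from separate cultures. The p-values below therefore measure only the spread between these libraries, which may be technical.

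ADGRG1 encodes an adhesion G protein-coupled receptor, a surface protein that cleaves itself into an extracellular and a transmembrane part, binds collagen III and signals through G12/13 proteins to RhoA. CALB2 encodes calretinin, a cytosolic EF-hand protein that buffers calcium in neurons and is used in pathology as a marker of mesothelium. STRA6 encodes the receptor that takes up retinol from its plasma carrier RBP4, and retinoic acid is known to induce it. MPP4 encodes a membrane-associated guanylate kinase (MAGUK), a family of scaffolds at cell contacts and synapses, and is known from retinal photoreceptors. Melatonin, the pineal hormone of darkness, acts through the receptors MTNR1A and MTNR1B. Those receptors had 11 and 1 read pairs over all 9 libraries. The melatonin-binding enzyme NQO2 stood between 92.6 and 105 CPM, the counts-per-million value of a gene among read pairs assigned to genes, scaled between libraries by TMM (trimmed mean of M values).

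On GRCh38, in the GENCODE release 29 annotation, ADGRG1 (ENSG00000205336.11) lies on the plus strand of chromosome 16, from 57610652 to 57665580. CALB2 (ENSG00000172137.18) lies on the plus strand of the same chromosome, from 71358713 to 71390438. STRA6 (ENSG00000137868.18) lies on the minus strand of chromosome 15, from 74179466 to 74212267. MPP4 (ENSG00000082126.17) lies on the minus strand of chromosome 2, from 201644870 to 201698694. All are protein-coding, and the counts cover the exons of each gene as a whole.

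Promoters are shown because the genes were picked as moving together and because one treatment targeted a DNA-binding factor. RefSeq windows of GRCh38.p14, from 250 bases before to 50 bases after a start, matched ADGRG1, STRA6 and MPP4, 3 of the members, with 9 starts in all. The 5'-most start of each is printed 5' to 3'. The ADGRG1 window is chr16:57619488-57619787 on the plus strand. The STRA6 window is chr15:74212210-74212509 and the MPP4 window chr2:201698595-201698894, both on the minus strand. Capitals mark any match to the letters searched, on either strand.
ADGRG1: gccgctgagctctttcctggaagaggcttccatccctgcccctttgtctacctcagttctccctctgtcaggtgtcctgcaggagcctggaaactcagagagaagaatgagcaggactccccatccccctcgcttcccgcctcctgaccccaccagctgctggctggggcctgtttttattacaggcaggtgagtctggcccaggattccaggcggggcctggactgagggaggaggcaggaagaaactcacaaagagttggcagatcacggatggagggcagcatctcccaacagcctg
STRA6: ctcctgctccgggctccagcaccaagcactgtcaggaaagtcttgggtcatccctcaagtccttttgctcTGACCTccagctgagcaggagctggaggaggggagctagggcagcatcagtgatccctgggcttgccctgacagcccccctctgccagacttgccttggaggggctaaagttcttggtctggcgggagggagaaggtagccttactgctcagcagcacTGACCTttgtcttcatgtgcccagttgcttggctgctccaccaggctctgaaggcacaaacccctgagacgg
MPP4: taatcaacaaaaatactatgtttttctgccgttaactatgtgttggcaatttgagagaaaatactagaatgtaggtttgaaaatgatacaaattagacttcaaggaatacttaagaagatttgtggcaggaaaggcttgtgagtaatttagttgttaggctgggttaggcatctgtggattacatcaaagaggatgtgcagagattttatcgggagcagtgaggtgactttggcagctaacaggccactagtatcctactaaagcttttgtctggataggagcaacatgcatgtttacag
One search was for CACGTG, the E-box bound by CLOCK with ARNTL, and another for GCGTG, the core bound by the aryl hydrocarbon receptor. Elements of nuclear receptors (AGGTCA) and of cAMP signalling (TGACGTCA) were searched too, as were the CCAAT box, the GC box (GGGCGG) and the TATA box (TATAAA). No match overlapped another in the 9 windows. CACGTG was in 0 of the 9 windows, against 7.26% of 35116 windows of all genes, GCGTG in 0 (36.5% of all) and TGACGTCA in 0 (1.85% of all). AGGTCA was in 2 windows, both of STRA6 (13.8% of all), and the printed STRA6 window holds it 2 times, read there as TGACCT. The CCAAT box was in 2 windows (34.6% of all), and GGGCGG and TATAAA in 1 each (45.0% and 11.5% of all), again all of STRA6. Absence of these letters says only that they are not in these windows, and gene-level counts do not show which start was used.

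Read pairs assigned to genes numbered 15384539 to 19192962 per library. Unmapped reads made up 2.24% to 2.34% in the 3 melatonin libraries and siCLOCK replicate 3, and 1.22% to 1.36% in the other 5. Processed pseudogenes took 0.314% to 0.324% of gene counts in the first set and 0.163% to 0.172% in the second. Melatonin and control therefore share no set, and only siCLOCK replicate 3 links the melatonin libraries to cells not given it. Between melatonin and control alone, the set and the treatment cannot be told apart. CLOCK itself stood at 40.9, 41.6 and 39.0 CPM in melatonin, 20.9, 32.02 and 38.1 CPM in siCLOCK replicates 1 to 3, and 39.0, 38.6 and 44.4 CPM in control. In siCLOCK against control its log2 fold change was -0.42 (SE 0.14) and did not pass (edgeR adjusted p = 0.340). Replicate 3 is written below as the library labelled siCLOCK replicate 3, because its CLOCK level was close to the lowest control. Of 7 carcinoma line markers, the keratins KRT8 (130 to 182 CPM) and KRT18 (213 to 344 CPM) and vimentin, VIM (1466 to 2018 CPM), were abundant, while EPCAM (at most 0.476 CPM) and CDH1 (at most 0.126 CPM) were nearly absent.

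In melatonin, all 4 genes lay below every other library of the series, at 39.7% to 53.0% of the control mean. ADGRG1 stood at 7.38, 6.56 and 6.39 CPM in melatonin, 20.7, 22.2 and 18.4 CPM in siCLOCK, and 15.7, 17.4 and 13.8 CPM in control. Its 3 groups did not overlap: siCLOCK was highest and melatonin lowest. Against control, its log2 fold change in melatonin was -1.21 (SE 0.12), or 2.31-fold lower. In bulk RNA, fewer cells expressing a gene and less of its RNA per cell cannot be told apart.

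CALB2 was the most abundant of the 4, at 63.6, 70.4 and 68.7 CPM in melatonin, 180, 157 and 132 CPM in siCLOCK, and 125, 125 and 132 CPM in control. Melatonin stood apart from all other libraries. The lowest siCLOCK library, replicate 3, only just cleared the highest control (132.0 against 131.8 CPM). The log2 fold change in melatonin against control was -0.91 (SE 0.09), the smallest of the 4 genes.

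STRA6 stood at 4.04, 4.55 and 4.26 CPM in melatonin, 7.03, 9.51 and 11.02 CPM in siCLOCK, and 10.2, 11.4 and 7.85 CPM in control. Here siCLOCK and control overlapped, and both lay above melatonin. Melatonin against control gave -1.20 (SE 0.17) on the log2 scale, with the widest error of the 4 genes and with 64 to 88 read pairs in the melatonin libraries.

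MPP4 stood at 5.04, 4.86 and 3.62 CPM in melatonin, 10.9, 11.8 and 11.9 CPM in siCLOCK, and 9.60, 11.7 and 12.7 CPM in control. Every siCLOCK value lay within the control range. Its log2 fold change of -1.33 (SE 0.14) in melatonin against control was the largest of the 4, and it rests on 68 to 94 read pairs per melatonin library.

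**Figure D1:**
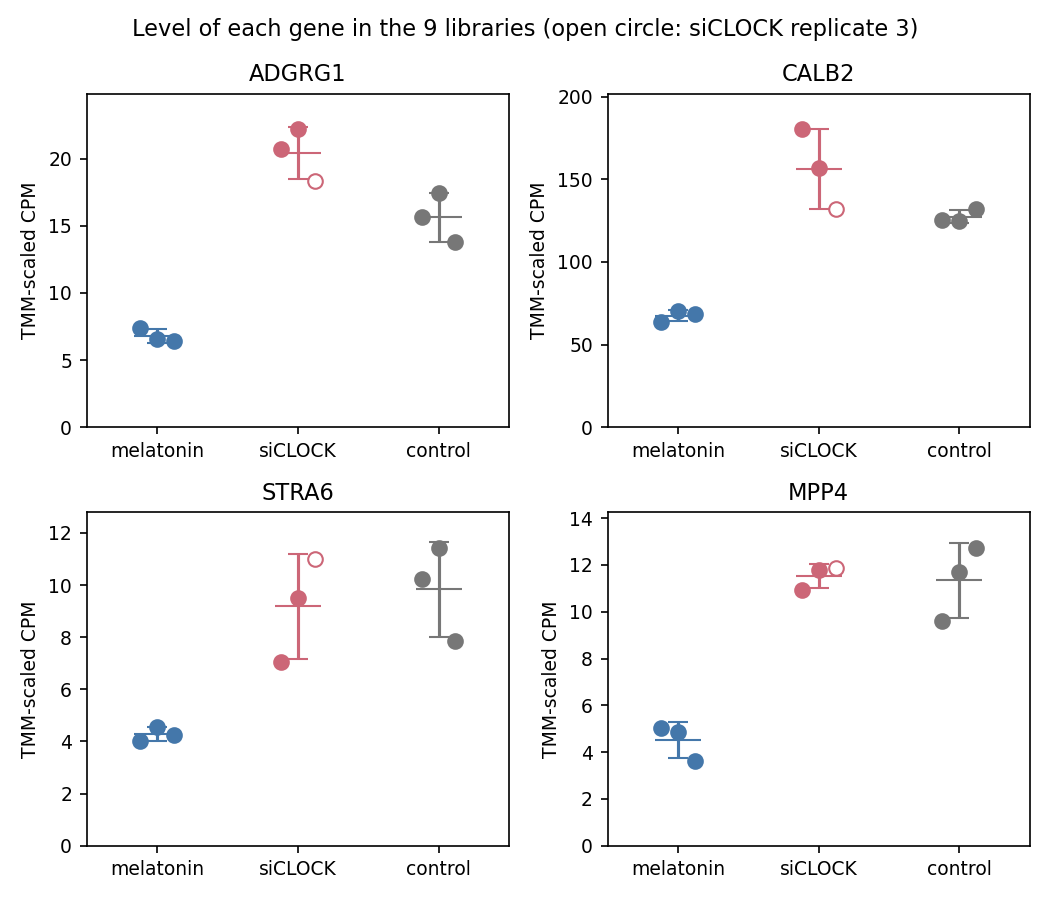
TMM-scaled CPM (y axis, from 0) of each gene in melatonin, siCLOCK and control libraries (points), with group mean and SD (n = 3). Melatonin lies below the other libraries in every panel, and siCLOCK replicate 3 (open circle) lies near the controls, for example at 132 CPM for CALB2.

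These values chose the genes, so their place among all genes is given only as a description. From the lowest log2 fold change upwards among 16441 genes tested, MPP4 ranked 35, ADGRG1 63, STRA6 68 and CALB2 189. In that comparison 12.1% of genes tested were called lower and 11% higher (edgeR quasi-likelihood test, adjusted p under 0.05). All 3 melatonin libraries lay below all 6 others for 13.4% of genes tested. All 4 members passed the filter on low counts.

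The genes differed in abundance far more than in their fold changes. Per kilobase of annotated exon, CALB2 averaged 39.7 CPM ± 2.09 in melatonin, 91.9 ± 14.2 in siCLOCK and 74.8 ± 2.25 in control (SD, n = 3 each). MPP4 averaged 0.915 CPM per kilobase ± 0.157 in melatonin, 2.34 ± 0.104 in siCLOCK and 2.30 ± 0.324 in control. ADGRG1 averaged 0.783 CPM per kilobase ± 0.0608 in melatonin, 2.36 ± 0.223 in siCLOCK and 1.804 ± 0.209 in control. STRA6 was the lowest in each group by this measure, at 0.557 CPM per kilobase ± 0.0333 in melatonin, 1.19 ± 0.262 in siCLOCK and 1.28 ± 0.237 in control. In control, MPP4 and ADGRG1 did not differ beyond their spread. CALB2 exceeded 94.6% of genes tested in melatonin and 97.3% in control. STRA6 exceeded 15.3% in melatonin and 28.9% in control by the same measure.

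Spread between libraries of a group was close to counting error for some genes and wider for others. For CALB2 the coefficient of variation was 5.28% in melatonin, 15.4% in siCLOCK and 3.01% in control, where read counts alone give 2.86%, 1.85% and 2.06%. For STRA6 it was 5.98% in melatonin, 21.9% in siCLOCK and 18.5% in control, with 11.4%, 7.62% and 7.39% from counting. The 3 siCLOCK libraries were thus the most uneven for these 2 genes, in opposite order: replicate 1 was the highest for CALB2 and the lowest for STRA6.

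The library labelled siCLOCK replicate 3 shared its unmapped and pseudogene shares with the melatonin libraries, and it held all 4 genes above the control mean. Labelled siCLOCK, it is not a control within that set of libraries, and the part of the set was not tested. ADGRG1 was at 118% of the control mean in this library, CALB2 at 104%, STRA6 at 112% and MPP4 at 105%. Set against that library, the melatonin libraries held 34.8% to 40.2% of its ADGRG1, 48.1% to 53.3% of its CALB2, 36.6% to 41.3% of its STRA6 and 30.6% to 42.5% of its MPP4. On the log2 scale the melatonin mean differed from this library by -1.44 for ADGRG1, -0.97 for CALB2, -1.36 for STRA6 and -1.40 for MPP4. With 1 library on one side there is no replicate error for these differences. For 16.7% of genes tested, all 3 melatonin libraries lay below all controls and this library.

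A model with a term for the libraries above 1.8% unmapped reads estimates that term only from siCLOCK replicate 3 against replicates 1 and 2. These libraries also differed in CLOCK (38.1 CPM in replicate 3, against 20.9 and 32.02 CPM). The term therefore cannot tell the library set from the CLOCK level. With the term, the log2 difference of melatonin from control was -0.99 (SE 0.18) for ADGRG1, -0.56 (SE 0.12) for CALB2, -1.61 (SE 0.25) for STRA6 and -1.40 (SE 0.22) for MPP4. CALB2 and ADGRG1 came closer to 0 and STRA6 moved further from it, and all 4 kept their sign. Its estimates in melatonin thus rest on 3 siCLOCK libraries as well as on melatonin and control. In that model 2.96% of genes tested were called lower and 1.72% higher, 4.68% in all.

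**Figure D2:**
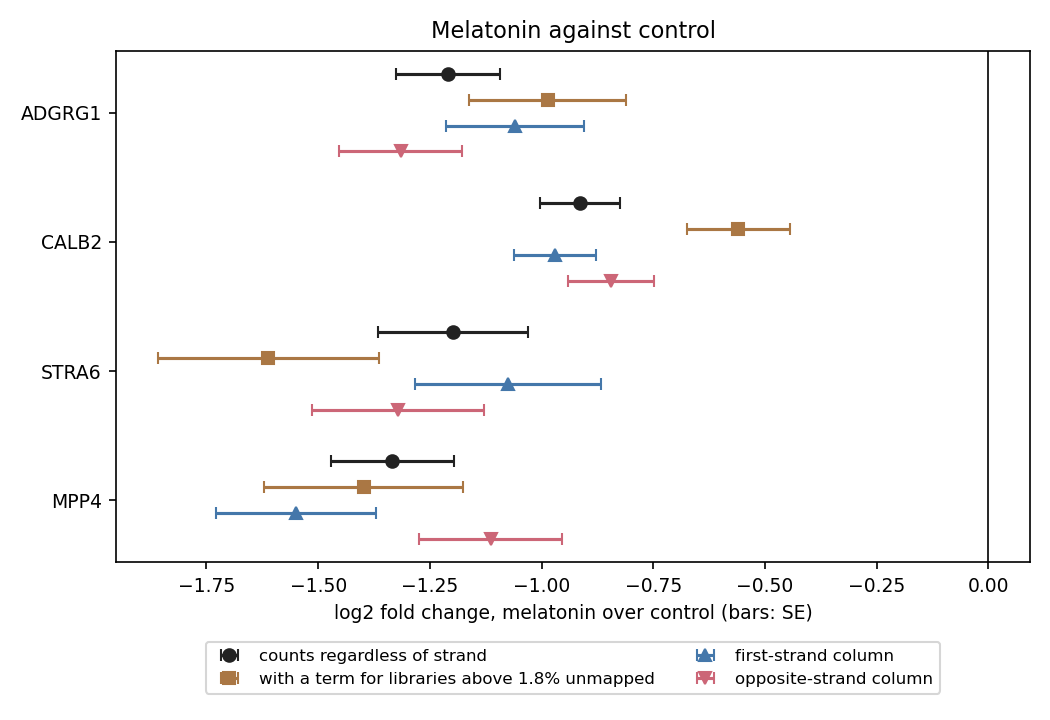
Log2 fold change of melatonin over control (x axis; bars are SE) for each gene under 4 ways of counting or modelling. All values lie below 0, and CALB2 with the term for unmapped reads is nearest to it, at -0.56.

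siCLOCK against control was not used to choose the genes, but it shares the control libraries that were, which can tilt it. ADGRG1 averaged 20.4 CPM ± 1.93 in siCLOCK and 15.6 CPM ± 1.81 in control (SD, n = 3 each), a log2 fold change of 0.38 (SE 0.10) that did not pass (edgeR adjusted p = 0.207). CALB2 averaged 157 CPM ± 24.2 in siCLOCK and 127 CPM ± 3.83 in control, at 0.30 (SE 0.09, edgeR adjusted p = 0.269). STRA6 averaged 9.19 CPM ± 2.01 in siCLOCK and 9.84 CPM ± 1.82 in control, at -0.10 (SE 0.15, edgeR adjusted p = 0.933). The values for MPP4 were 11.5 CPM ± 0.513 in siCLOCK and 11.3 CPM ± 1.59 in control, at 0.02 (SE 0.12, edgeR adjusted p = 0.984). Thus 0 of 4 members passed, against 0.0547% of genes called higher and 0.0669% called lower. At an unadjusted p under 0.05 there were 2, ADGRG1 and CALB2, beside 8.24% of all genes tested. DESeq2 and limma-voom called 0 as well, DESeq2 giving an adjusted p for CALB2 alone.

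For 2 of the 4, ADGRG1 and CALB2, all siCLOCK libraries lay above all controls, which 5.75% of genes tested did. Both genes also had all melatonin libraries below the controls, but they were chosen for that part of the pattern. Of 3521 genes with all melatonin libraries below all controls, 103 also had all siCLOCK libraries above the controls (0.626% of genes tested). Whether ADGRG1 and CALB2 passed depended on 1 library, and also on the filter on low counts, as given further below. Without the library labelled siCLOCK replicate 3, ADGRG1 was at 0.45 (SE 0.10, edgeR adjusted p = 0.0462) and CALB2 at 0.40 (SE 0.07, edgeR adjusted p = 0.0117), so both passed. In that fit 0.359% of genes tested were called higher and 0.257% lower, 0.617% in all. With the term for unmapped reads, ADGRG1 was at 0.46 (edgeR adjusted p = 0.0423) and CALB2 at 0.41 (edgeR adjusted p = 0.0108), in a model that called 0.444% of genes tested higher and 0.706% in all. There siCLOCK against control rests on siCLOCK replicates 1 and 2 alone. It thus repeats the fit without replicate 3 and is no separate result. Without replicate 1, CALB2 was at 0.18 (edgeR adjusted p = 0.310) and ADGRG1 at 0.37 (edgeR adjusted p = 0.128). STRA6 was at 0.06 without replicate 1 and at -0.26 without replicate 3, neither passing. The melatonin libraries set against all 3 siCLOCK libraries gave log2 differences of -1.59 for ADGRG1, -1.21 for CALB2, -1.10 for STRA6 and -1.36 for MPP4. They share the melatonin libraries with the choice of the genes and are untested for that reason.

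**Figure D3:**
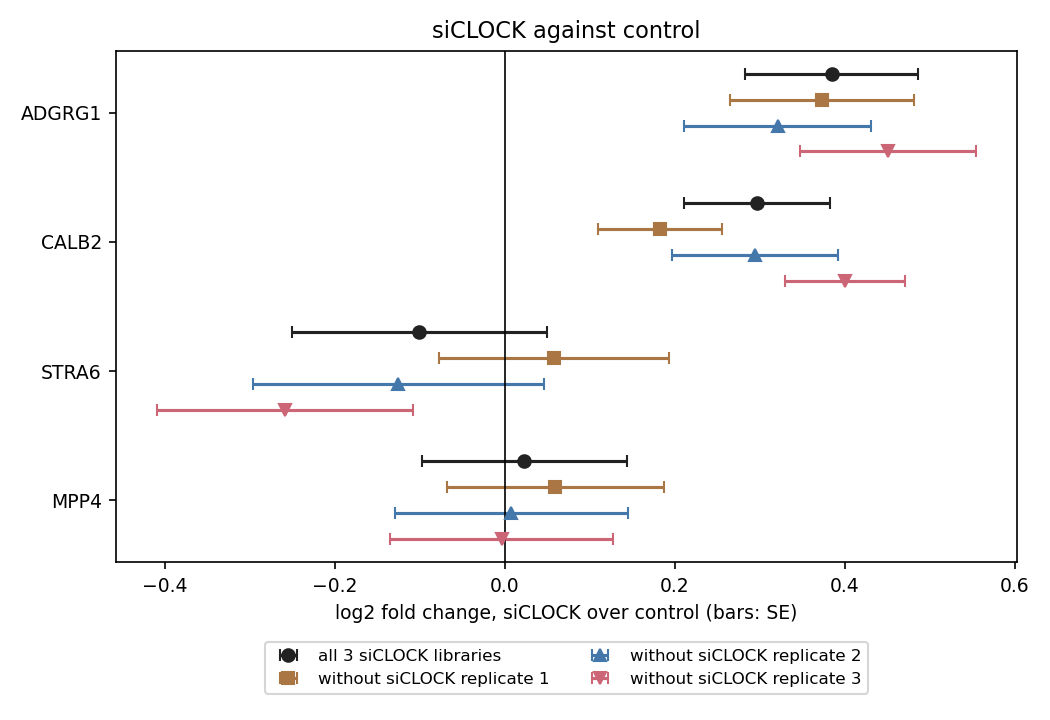
Log2 fold change of siCLOCK over control (x axis; bars are SE) for each gene with all siCLOCK libraries and without each in turn. ADGRG1 and CALB2 lie above 0 in every fit, highest without replicate 3 (0.45 and 0.40), while STRA6 and MPP4 lie on both sides of 0.

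The files also count each gene by strand. A read pair enters the first-strand column (column 3) when its first read matches the strand of the gene, and the opposite-strand column (column 4) otherwise. The totals of the columns differed little (column 4 over column 3 was 0.955 to 0.993), so the libraries were not stranded. Over all genes tested, the median share in the first-strand column was 50.9%, with 90% of genes between 41.1% and 59.7%.

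ADGRG1 lay just outside that range, with 40.7% of its strand counts in the first-strand column over all libraries. Its share was 37.6%, 44.9% and 50% in melatonin, 41.0%, 40.4% and 40% in siCLOCK, and 40%, 40.4% and 37.8% in control. The 95% Wilson intervals, which cover counting error only, were 39.2% to 49.4% for melatonin and 36.3% to 42.8% for control with libraries summed, and they overlap. STRA6 had 41.8% over all libraries, MPP4 51.0% and CALB2 54.2%. By group, STRA6 had 47.1% in melatonin (95% Wilson interval 40.8% to 53.4%), 38.8% in siCLOCK (34.8% to 43.0%) and 42.5% in control (38.5% to 46.6%). Its intervals lay below the median of all genes in siCLOCK and control, while that of melatonin held it.

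Both columns gave lower levels in melatonin for each gene. They split the same read pairs by which the genes were chosen, so this direction is a description and no separate support. ADGRG1 was at 4.76 to 5.50 CPM in melatonin and 8.99 to 12.2 CPM in control in the first-strand column, and at 5.72 to 8.26 CPM in melatonin and 15.4 to 18.5 CPM in control in the opposite one. CALB2 was at 60.3 to 64.5 CPM in melatonin and 116 to 134 CPM in control in the first-strand column, and at 51.0 to 59.5 CPM in melatonin and 96.9 to 105 CPM in control in the other. No group ranges of the 4 genes overlapped between melatonin and control in either column. All 3 melatonin libraries lay below all controls for 20% of genes tested in the first-strand column and 20.1% in the opposite one, and for 21.4% regardless of strand. The log2 fold changes were -1.06 (SE 0.15) and -1.32 (SE 0.14) for ADGRG1, -0.97 (SE 0.09) and -0.85 (SE 0.10) for CALB2, in the first and the opposite column. For STRA6 they were -1.07 (SE 0.21) and -1.32 (SE 0.19), and for MPP4 -1.55 (SE 0.18) and -1.11 (SE 0.16).

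Overlapping genes could in principle move reads out of the count made regardless of strand. For ADGRG1, CALB2 and MPP4 the strand columns summed exactly to that count in every library. STRA6 overlaps CCDC33 on the opposite strand over 9563 bases, and its strand columns exceeded the count by 1 to 3 read pairs in melatonin, 3 to 10 in siCLOCK and 3 to 10 in control. CCDC33 itself had 2 to 7 read pairs in melatonin, 8 to 16 in siCLOCK and 5 to 10 in control. AC018552.3, antisense within ADGRG1, had 0 read pairs in all libraries.

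**Figure D4:**
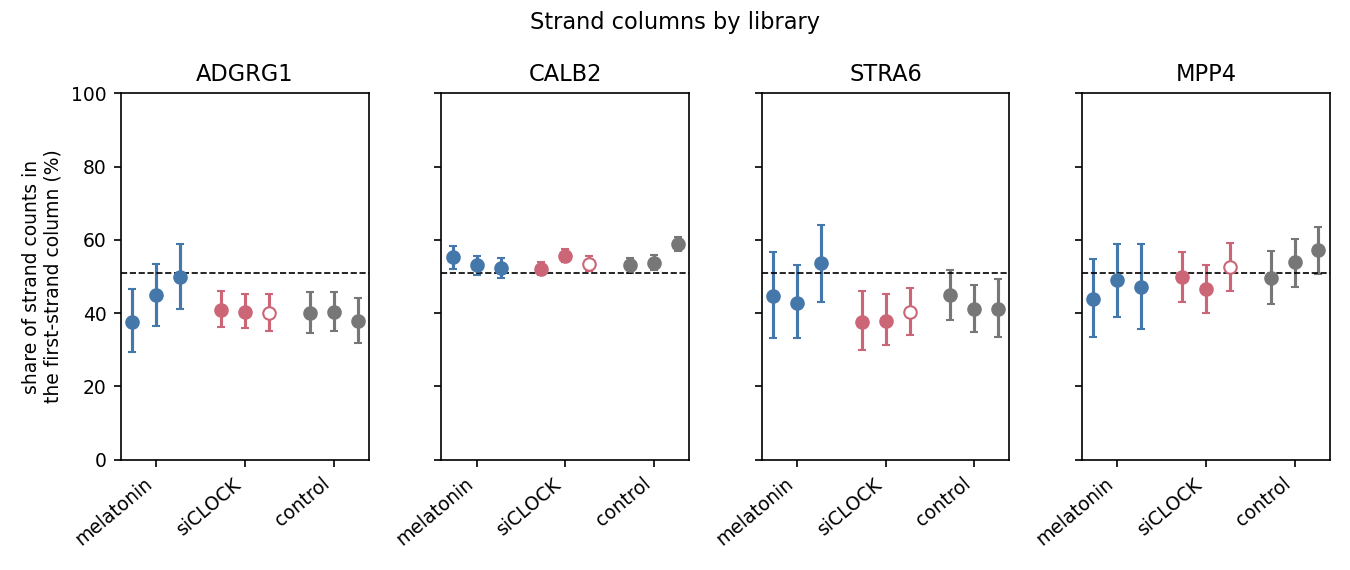
Share of strand counts in the first-strand column (y axis, percent; bars are 95% Wilson intervals) for each library, with the median of all genes tested as a dashed line at 50.9%. ADGRG1 lies under the line in every library, and STRA6 in all but melatonin replicate 3; siCLOCK replicate 3 is the open circle.

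Protein-coding genes beside the 4 loci were looked at too, and some passed in melatonin and some did not. ADGRG5 and ADGRG3, adhesion receptors on either side of ADGRG1, had at most 3 and 5 read pairs in any library. CMTR2, an mRNA cap methyltransferase gene next to CALB2, stood at 56.6 to 58.1 CPM in melatonin and 50.1 to 57.5 CPM in control (edgeR adjusted p = 0.389). TMEM237, a cilium gene next to MPP4, stood at 51.3 to 57.9 CPM in melatonin and 60.1 to 66.8 CPM in control, a log2 fold change of -0.24 that passed (edgeR adjusted p = 0.0224). ISLR beside STRA6 was low and fell too, at 0.567 to 1.07 CPM in melatonin and 1.43 to 1.86 CPM in control (log2 -0.91, edgeR adjusted p = 0.0205).

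Relatives of ADGRG1 were called about as often as all genes tested. Of 31 other adhesion receptors 14 were measured, and 3 fell and 0 rose in melatonin against control, or 21.4% beside 23.1% of all genes tested. Their median log2 fold change was 0.07, beside 0.01 over all genes tested. ADGRE5 (CD97), a leukocyte and tumour adhesion receptor, averaged 75.5 CPM ± 4.09 in melatonin and 101 CPM ± 1.34 in control (SD, n = 3 each; log2 -0.42, SE 0.07, edgeR adjusted p = 2.34e-04). ADGRA2, a coreceptor for Wnt7 signalling, was at -0.64 (edgeR adjusted p = 0.0141) and the latrophilin ADGRL1 at -0.26 (edgeR adjusted p = 0.0423). With the term for unmapped reads 0 of the 14 passed, and ADGRL1 went to 0.00. The count was 1 without control replicate 1, control replicate 2 or melatonin replicate 1. In these fits calls over all genes tested fell too, from 1803 higher and 1987 lower of 16441. In the same order they were 1196 and 1468 of 16715, 1079 and 1372 of 16727, and 1139 and 1458 of 16743.

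Among 15 measured ligands, partners and G protein route genes of ADGRG1, 3 fell and 1 rose in melatonin, with a median of -0.02. That was 26.7%, beside 23.1% of all genes tested. CD9, a tetraspanin that associates with the receptor, averaged 113 CPM ± 4.27 in melatonin and 140 CPM ± 1.59 in control (SD, n = 3 each; log2 -0.31, SE 0.06, edgeR adjusted p = 0.00157). RHOA, the small GTPase at the end of the route, fell by 0.24 on the log2 scale (edgeR adjusted p = 0.00605) and the angiogenic factor VEGFA by 0.48 (edgeR adjusted p = 0.00389). ARHGEF12, an exchange factor between G12/13 and RhoA, rose by 0.21 (edgeR adjusted p = 0.0221). Only VEGFA passed with the term for unmapped reads, at -0.63 (edgeR adjusted p = 0.0490).

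EF-hand calcium proteins other than CALB2 made the longest list and gave the most calls. Of 36 measured, 11 fell and 2 rose in melatonin, or 36.1% beside 23.1% of all genes tested, with a median of -0.13. S100A2 averaged 6.06 CPM ± 0.572 in melatonin and 12.1 CPM ± 0.679 in control (SD, n = 3 each; log2 -1.01, SE 0.11, edgeR adjusted p = 3.20e-06). HPCAL1, a neuronal calcium sensor relative, was at -0.58 (edgeR adjusted p = 2.96e-05), the mitochondrial EFHD1 at -0.60 (edgeR adjusted p = 4.43e-04) and the centrin CETN3 at -0.37 (edgeR adjusted p = 0.00279). The genes that rose, named after their values were seen, were CETN2 at 0.24 (edgeR adjusted p = 0.0499) and CALML6 at 1.41 (edgeR adjusted p = 0.0237). CALML6 was scarce, at 0.764 CPM in melatonin and 0.288 CPM in control. With the term for unmapped reads 4 passed, beside 4.68% of all genes tested. These were S100A2 at -0.92 and EFHD1 at -0.75, lower, and CETN2 at 0.51 and CALML6 at 3.29, higher. The count of 13 became 7 without melatonin replicate 2, 8 without melatonin replicate 3 and 6 without control replicate 1. Calls over all genes tested fell in these fits too, from 1803 higher and 1987 lower of 16441. In the same order they were 1072 and 1396 of 16685, 1061 and 1411 of 16695, and 1196 and 1468 of 16715. In the library labelled siCLOCK replicate 3, S100A2 stood at 10.9 CPM and EFHD1 at 32.01 CPM, with CALML6 at 0.105 CPM.

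Retinoid genes other than STRA6 were measured for 24 of 41. Of these, 6 fell and 1 rose in melatonin, or 29.2% beside 23.1% of all genes tested, with a median of -0.17. DHRS3, which reduces retinal back to retinol, averaged 10.3 CPM ± 0.791 in melatonin and 16.8 CPM ± 1.61 in control (SD, n = 3 each; log2 -0.70, SE 0.11, edgeR adjusted p = 1.68e-04). LRAT, which esterifies the retinol that STRA6 brings in, stood at 0.584 CPM ± 0.141 in melatonin and 1.45 CPM ± 0.337 in control (log2 -1.29, SE 0.29, edgeR adjusted p = 0.00324). The retinoic acid receptor gene RARB was at -0.66 (edgeR adjusted p = 0.0171), and its partner RXRB rose by 0.34 (edgeR adjusted p = 0.0107). With the term for unmapped reads 0 of the 24 passed, LRAT at -1.08 and DHRS3 at -0.53. The count of 7 became 3 without melatonin replicate 2 or 3, 3 without control replicate 1 and 4 without control replicate 2. Over all genes tested, calls fell there too, from 1803 higher and 1987 lower of 16441. Without melatonin replicate 2 or 3 they were 1072 and 1396 of 16685, or 1061 and 1411 of 16695. Without control replicate 1 or 2 they were 1196 and 1468 of 16715, or 1079 and 1372 of 16727. In the library labelled siCLOCK replicate 3, DHRS3 stood at 16.2 CPM and LRAT at 2.05 CPM, near or above the control means.

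MAGUK scaffolds and polarity partners other than MPP4 had the lowest share. Of 32 measured, 2 fell and 1 rose in melatonin, or 9.38% beside 23.1% of all genes tested, with a median of -0.04. CARD10, a scaffold of NF-kB signalling, averaged 25.8 CPM ± 1.06 in melatonin and 37.1 CPM ± 2.14 in control (SD, n = 3 each; log2 -0.52, SE 0.09, edgeR adjusted p = 2.92e-04). MPP2, a relative of MPP4, was at -0.46 (edgeR adjusted p = 0.00208), and the junction scaffold MAGI1 rose by 0.22 (edgeR adjusted p = 0.0365). With the term for unmapped reads 0 of the 32 passed. The count of 3 became 5 without siCLOCK replicate 1 and 6 without siCLOCK replicate 3, neither of which belongs to the groups compared. Calls over all genes tested rose in both fits, from 1803 higher and 1987 lower of 16441. They reached 2213 and 2433 of 16743 without replicate 1, and 2071 and 2439 of 16706 without replicate 3.

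In siCLOCK against control 0 members of these 5 lists passed with edgeR, limma-voom or, where it gave an adjusted p, DESeq2. At an unadjusted p under 0.05 with edgeR there were 2 adhesion receptors, 1 gene of the ADGRG1 route, 5 EF-hand genes, 2 retinoid genes and 3 scaffolds, of 14, 15, 36, 24 and 32 measured, beside 8.24% of all genes tested. The smallest p of each list belonged to ADGRB2 at -0.40, TGM2, a transglutaminase that binds ADGRG1, at 0.24, HPCAL1 at 0.26, the retinal dehydrogenase ALDH1A3 at 0.47 and MAGI2 at -0.32 (edgeR adjusted p between 0.233 and 0.438). Without the library labelled siCLOCK replicate 3, HPCAL1 passed (edgeR adjusted p = 0.0496), and without replicate 1, TGM2 passed at 0.29 (edgeR adjusted p = 0.0451). The first fit called 60 genes higher and 43 lower of 16706, and the second 69 and 38 of 16743.

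**Figure D5:**
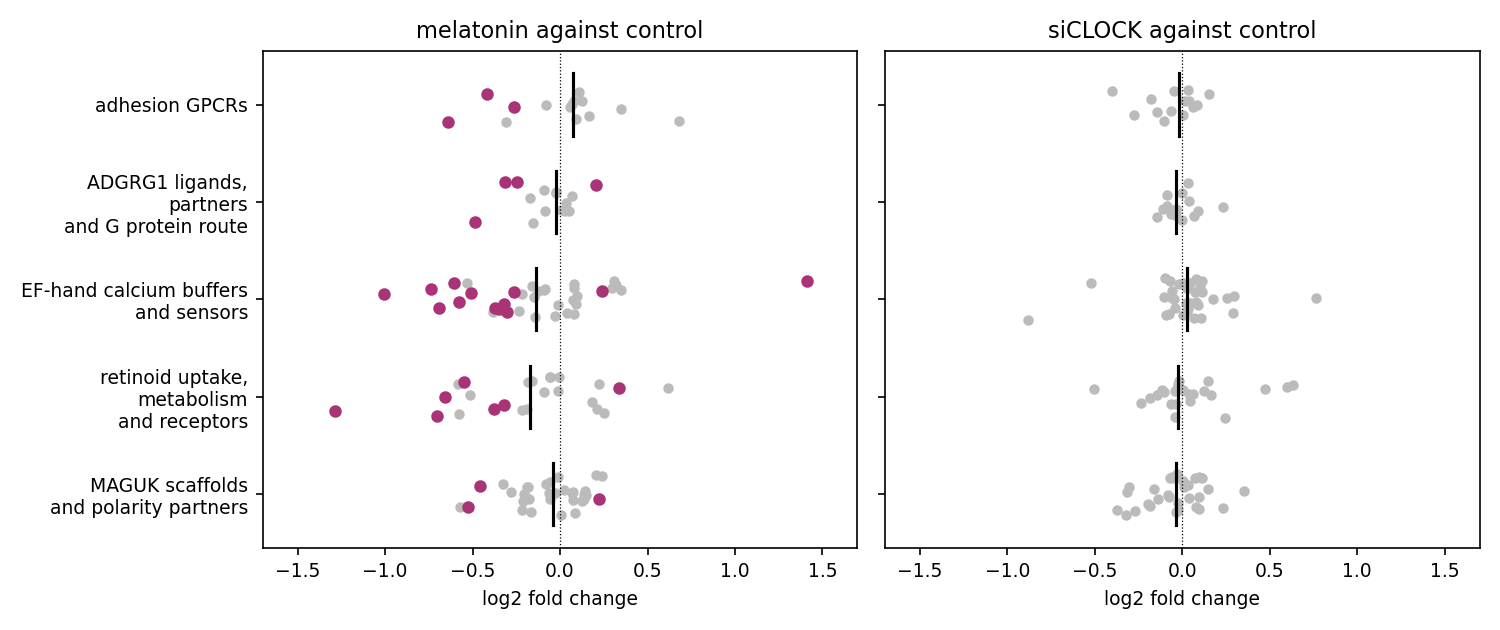
Log2 fold changes (x axis) of the measured genes of the 5 lists in melatonin against control and siCLOCK against control; magenta points passed (adjusted p under 0.05), grey points did not, and black bars are list medians. EF-hand genes, the longest list, hold the most magenta points in the melatonin panel (13), and the siCLOCK panel holds 0.

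Markers of other cells were checked beside CALB2 and MPP4. Of 7 mesothelial markers 2 were measured above the filter, WT1 and BNC1, while PDPN was at 0 and MSLN, UPK3B, LRRN4 and HP each had at most 13 read pairs over all libraries. The sum of the 7 was 16.6 to 17.4 CPM in melatonin, 18.6 to 24.9 CPM in siCLOCK and 20.1 to 20.4 CPM in control. It was lowest in melatonin, as CALB2 was. So was the sum of the 7 carcinoma line markers, at 1866 to 1924 CPM in melatonin, 2270 to 2495 CPM in siCLOCK and 2206 to 2549 CPM in control. Most of that sum was VIM (1466 to 2018 CPM over all libraries). CDH2 stood at 39.1 to 49.6 CPM and KRT19 at 1.27 CPM at most. The part of either sum in the result was not tested. The 5 photoreceptor markers summed to 3.53 to 5.33 CPM in melatonin, 3.68 to 5.25 CPM in siCLOCK and 4.04 to 4.39 CPM in control, and these ranges overlap. Leukocyte markers summed to at most 0.420 CPM, fibroblast markers to at most 3.61 CPM and endothelial markers to at most 5.37 CPM in any library.

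The genes most like each member were found by Pearson's r of log2(CPM + 1) over the 9 libraries among 12298 protein-coding genes. For ADGRG1 they were SERPINA1 (r = 0.990), HMGA1 (r = 0.985) and TPM4 (r = 0.984). The nearest to CALB2 were SH3KBP1 (r = 0.994), CAPN2 (r = 0.993) and KRT15 (r = 0.992), and to STRA6 LMO7 (r = 0.980), EFHD1 (r = 0.976) and PIF1 (r = 0.972). MPP4 was matched by ZNF618 (r = 0.991), LIN9 (r = 0.990) and AMOTL1 (r = 0.990). KRT15, a basal keratin, averaged 30.3 CPM ± 1.42 in melatonin, 66.9 CPM ± 9.60 in siCLOCK and 56.0 CPM ± 1.47 in control (SD, n = 3 each). Between 1.7% (STRA6) and 3.42% (CALB2) of these genes had an r above 0.9, and all points share the split of melatonin from the other libraries. Among the members themselves r ran from 0.801 (CALB2 with STRA6) to 0.967 (ADGRG1 with CALB2).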

How the data were processed

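RNA from H1299 cells was sequenced as read pairs in 9 libraries. For every library the authors deposited unnormalized gene counts, 1 column regardless of strand and 1 for each strand. STAR 2.7.9a and GRCh38 (hg38) come from the submitters' processing notes, and the annotation is not given in the sources used here. All 58721 identifiers matched GENCODE release 29, which was inferred from them. The 4 summary lines per file stayed out of library sizes.

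The analysis used edgeR 4.0.16 in R 4.3.3. After filterByExpr, 16441 genes remained. TMM gave the scaling, and the quasi-likelihood model had group as its only factor over the 9 libraries (biological coefficient of variation 0.0682). Tests were two-sided, with Benjamini-Hochberg adjustment over all genes tested, and passed at an adjusted p under 0.05. The SE is the log2 fold change divided by the square root of F. Intervals of shares are 95% Wilson intervals. Libraries of a group differed by more than counting noise (chi-square per degree of freedom 1.67 to 12.8 over 9 pairs). The procedure was checked on simulated data.

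The members and gene lists were chosen with earlier results of these data known. Named genes were the members, CLOCK, up to 4 passing genes of each list with the smallest p (or the 1 with the smallest p), 3 genes by likeness per member, overlapping and neighbouring genes, and melatonin binding proteins; 1 neighbouring gene is not reported here. Alternatives were DESeq2 1.42.0, limma-voom (limma 3.58.1), other scalings and filters, only the libraries compared, a replicate block, each strand column, a term for libraries above 1.8% unmapped reads, and each library left out.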

Additional observations from a re-analysis of the deposited data

How the results depend on the processing

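The log2 difference of melatonin from control kept its sign for all 4 members under every alternative run. The genes were chosen by that difference in these same libraries, so the kept sign is no separate support. It moved beyond the spread between replicates for ADGRG1 in first-strand counts (-1.06) and with the term for unmapped reads (-0.99), for CALB2 in opposite-strand counts (-0.85) and with that term (-0.56), and for STRA6 with that term (-1.61). Leaving out 1 library at a time gave -1.29 to -1.13 for ADGRG1, -0.95 to -0.88 for CALB2, -1.34 to -1.08 for STRA6 and -1.44 to -1.20 for MPP4.

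In siCLOCK against control, ADGRG1 passed without a filter (0.38, edgeR adjusted p = 0.0421) and with the term (0.46, edgeR adjusted p = 0.0423). CALB2 passed without a filter (0.29, edgeR adjusted p = 0.0147) and with the term (0.41, edgeR adjusted p = 0.0108). Without a filter, 152 genes were called higher and 59 lower of 33888 tested, against 9 and 11 of 16441 in the main fit. With the term, 73 were called higher and 43 lower of 16441. In this comparison the fit with the term repeats the fit without siCLOCK replicate 3. Over all alternatives the adjusted p ran from 0.0421 to 0.553 for ADGRG1 and from 0.0108 to 0.659 for CALB2. MPP4, which did not pass, changed sign in first-strand counts (-0.095). Leaving out 1 library gave 0.30 to 0.47 for ADGRG1, 0.18 to 0.40 for CALB2, -0.26 to 0.058 for STRA6 and -0.084 to 0.11 for MPP4, so STRA6 and MPP4 had no settled sign. DESeq2 gave no adjusted p for ADGRG1, STRA6 and MPP4.

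Of list genes called in melatonin, with the term for unmapped reads 0 adhesion receptors, 1 ADGRG1 route gene, 4 EF-hand genes, 0 retinoid genes and 0 scaffolds passed. In that model 4.68% of all genes tested passed. The retinoid count was 4 both at 5 CPM in 3 libraries and in first-strand counts, and the scaffold count was 7 with only the 6 libraries compared. Over all genes tested, calls were 1554 higher and 1875 lower of 11363 at 5 CPM, and 1321 and 1772 of 16793 in first-strand counts. With only the 6 libraries compared they were 2503 and 2809 of 16087. Leaving out 1 library gave 1 to 4 adhesion receptors, 3 to 5 route genes, 6 to 16 EF-hand genes, 3 to 8 retinoid genes and 2 to 6 scaffolds. Calls over all genes tested moved as well. They ran from 1079 higher and 1372 lower of 16727 without control replicate 2 to 2213 and 2433 of 16743 without siCLOCK replicate 1. In siCLOCK, 1 adhesion receptor (ADGRB2) was called without a filter and 2 EF-hand genes (S100A16 and HPCAL1) with the term. Leaving out 1 library gave 0 to 1 route genes, 0 to 1 EF-hand genes, and 0 for the other lists. The causes were not tested.

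Over all genes, siCLOCK against control gave 9 higher and 11 lower calls of 16441 tested with edgeR, against 48 and 21 with DESeq2. Without a filter there were 152 and 59 calls of 33888 tested, and with the term for unmapped reads 73 and 43 of 16441. Melatonin against control gave 1803 higher and 1987 lower calls, against 283 and 487 with that term. Replicate numbers did not pair the libraries: deviations of same-numbered libraries correlated at -0.13 to 0.10 over 9 pairs. A replicate block gave -1.20 for ADGRG1, -0.91 for CALB2, -1.20 for STRA6 and -1.33 for MPP4 in melatonin against control, and changed no call on a member. STRA6 and MPP4 had 64 to 94 read pairs per melatonin library, which limits their precision.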
